A study of Homo sapiens with 16 samples.

Results

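The 1739 regions described here carried a called H3K27ac peak in untreated MDA-MB-231 control cells and lost that call after TWEAK, while the same loss was not called in Hs578T control cells. They were selected on peak calls. Peaks of all 16 lists were merged where they shared 1 bp, which left 64545 regions. Those with a peak in 2 or more lists, 55219 in number, are called consensus regions. A member had a peak in both untreated lists and in neither TWEAK list of MDA-MB-231 control cells, and regions with that pattern in Hs578T control cells were left out. Of all 55219 regions, 2481 (4.49%) were lost in MDA-MB-231 control cells by this definition. Among them 742 were also lost in Hs578T control cells, which left the 1739 members. The same definition gave 2565 losses (4.65%) in Hs578T control cells, and by the rule no member was among them. These counts restate the selection and were not tested.

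The experiment asked how TWEAK alters the enhancers of triple-negative breast cancer (TNBC) cells and whether the alteration needs its receptor Fn14. MDA-MB-231 and Hs578T are established human TNBC cell lines with a mesenchymal-like phenotype. Each line was profiled as CRISPR control cells and as Fn14 KO cells. In the latter the receptor gene had been disrupted with CRISPR guides, and the loss had been checked by western blot and Sanger sequencing. The labels do not name the guide. All cells were starved for 8 h, and TWEAK-treated cells then received 10 ng/ml of the cytokine, which was renewed after 24 h, for 48 h in all, whereas untreated cells received none. The 8 groups of line, genotype and treatment held 2 lists each, called on each sample alone. The study's methods speak of biological replicates for its cell line ChIP-seq and state that its cell line experiments were repeated independently on different days. The day of each list is not given, and each p-value below measures only the spread between these lists.

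H3K27ac, acetylation of lysine 27 of histone H3, is deposited by the acetyltransferases p300 and CBP at active enhancers and promoters, and it is removed when an element is decommissioned. TWEAK is a TNF family cytokine that binds Fn14 and signals through TRAF adaptors to the NF-kB and MAPK pathways. Start sites of the mesenchymal-like genes VIM, CD44, FOSL1, AXL, ZEB1 and CAV1 carried a peak in all 16 lists. Of the luminal genes, the start sites of ESR1 and CDH1 had no peak in any list and FOXA1 had one in 2 lists, whereas GATA3, SPDEF and ERBB3 had one in all 16 lists, so that a mark was absent throughout at 2 of these 6 genes.

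To show what such elements look like, the central 300 bp of 5 strong members is given below on the + strand of hg38. They are 5 of the 6 top-ranked members that were at least as long as this window and whose central window touched no annotated exon. The rank of a member was the smaller of its 2 −log10 q-values in untreated MDA-MB-231 control cells, where q is the false discovery rate the peak caller gave to the best peak of the region. Capitals mark matches, on either strand, to any of 18 short motifs that are spelled out with the motif results.

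GLI2, chr2:120559516-120559815: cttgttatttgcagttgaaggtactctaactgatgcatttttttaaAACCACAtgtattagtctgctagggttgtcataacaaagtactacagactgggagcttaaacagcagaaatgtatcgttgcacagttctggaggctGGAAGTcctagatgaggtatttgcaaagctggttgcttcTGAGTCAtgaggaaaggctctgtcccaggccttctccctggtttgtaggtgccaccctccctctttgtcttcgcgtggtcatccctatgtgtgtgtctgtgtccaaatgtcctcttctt
TP63, chr3:189530986-189531285: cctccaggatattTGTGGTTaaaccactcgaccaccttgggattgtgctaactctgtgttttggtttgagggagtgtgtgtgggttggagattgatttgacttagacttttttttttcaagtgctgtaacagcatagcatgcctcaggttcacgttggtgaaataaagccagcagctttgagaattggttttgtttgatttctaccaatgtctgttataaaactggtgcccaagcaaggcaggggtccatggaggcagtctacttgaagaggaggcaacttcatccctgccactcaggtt
CTNNA1, chr5:138668340-138668639: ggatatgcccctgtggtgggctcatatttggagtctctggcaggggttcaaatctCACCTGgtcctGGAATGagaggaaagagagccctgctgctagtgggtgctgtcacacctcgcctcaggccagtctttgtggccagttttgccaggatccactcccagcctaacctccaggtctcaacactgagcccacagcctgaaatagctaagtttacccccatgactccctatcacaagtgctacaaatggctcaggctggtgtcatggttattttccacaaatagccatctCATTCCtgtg
VRK1, chr14:97307091-97307390: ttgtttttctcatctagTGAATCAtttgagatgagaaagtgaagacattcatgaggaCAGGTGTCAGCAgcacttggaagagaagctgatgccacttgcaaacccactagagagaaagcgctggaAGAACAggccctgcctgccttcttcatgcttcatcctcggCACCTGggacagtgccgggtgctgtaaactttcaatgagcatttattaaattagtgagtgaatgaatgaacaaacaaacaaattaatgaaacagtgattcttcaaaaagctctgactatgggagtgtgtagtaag
POLRMT, chr19:623970-624269: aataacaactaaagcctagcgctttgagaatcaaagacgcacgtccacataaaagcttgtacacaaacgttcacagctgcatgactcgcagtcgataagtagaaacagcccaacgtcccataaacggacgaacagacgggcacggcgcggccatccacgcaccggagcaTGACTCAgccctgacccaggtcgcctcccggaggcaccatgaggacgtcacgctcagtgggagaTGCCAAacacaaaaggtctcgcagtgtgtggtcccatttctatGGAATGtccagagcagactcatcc

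The window near GLI2 held the RUNX letters at position 47, the ETS letters at position 143 and an AP-1 match, TGAGTCA, at position 182, counted from 1 at the 5′ end. The TP63 window held a single match, RUNX at position 14. The VRK1 window held 5 matches, with AP-1 at position 18, and its E-box at position 58 overlapped the small MAF letters at position 63. The POLRMT window held AP-1 at position 170 and TEAD at position 277, whereas CTNNA1 held an E-box and TEAD letters and no AP-1 letters. A match is a string of letters in the reference and not a bound site. Members on chromosome 8 were passed over when the windows were chosen, whatever their rank.

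**Figure D1:**
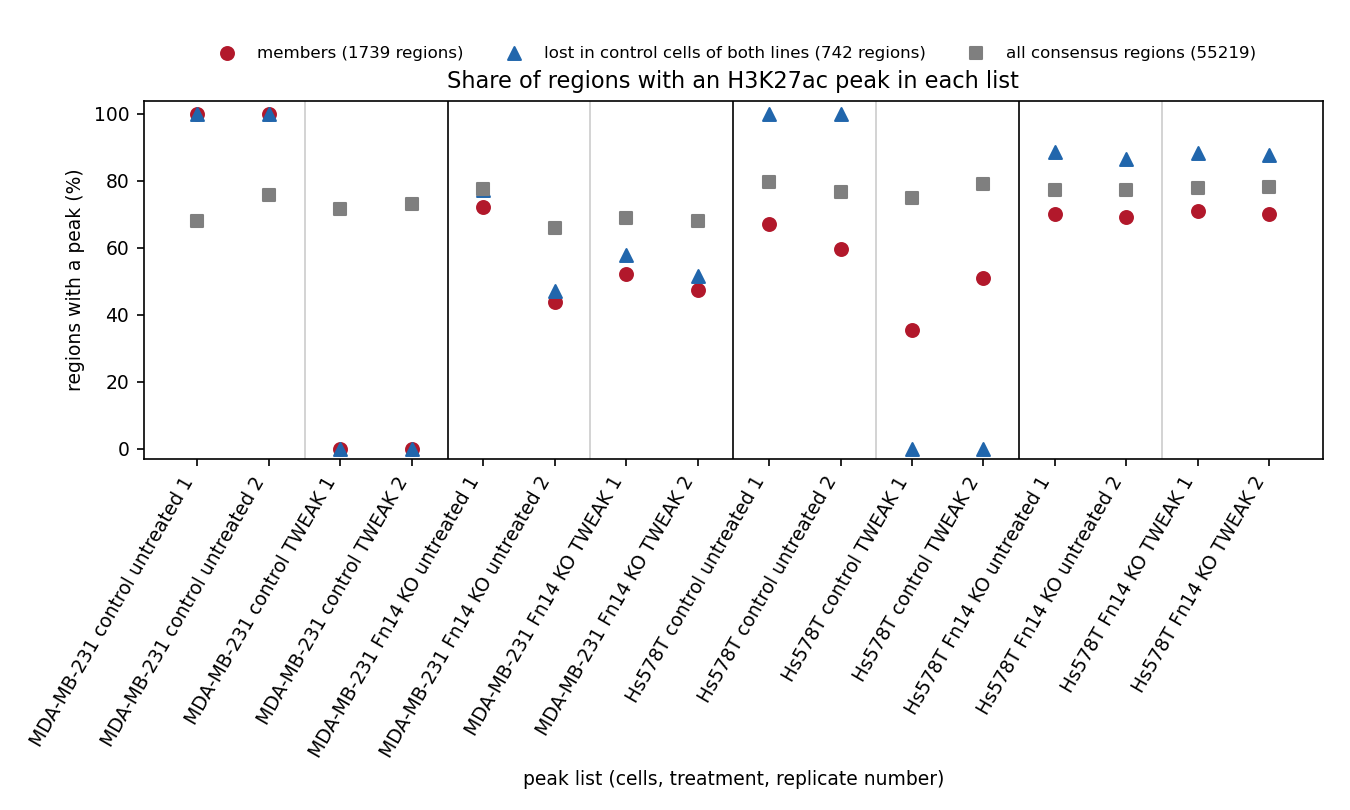
Share of regions with an H3K27ac peak (y axis, percent) in each of the 16 peak lists (x axis) for the 1739 members, the 742 regions lost in control cells of both lines and all 55219 consensus regions. Values of 0 and 100% in control cells follow from the selection; in the Hs578T Fn14 KO lists the members stay between 69.3% and 71.0%, and in Hs578T control cells both TWEAK lists lie below both untreated lists.

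Members were weak peaks. The median −log10 q of members in untreated MDA-MB-231 control cells was 2.41 in replicate 1 and 3.04 in replicate 2, against 10.1 and 10.7 for all regions with a peak in those lists. The median fold enrichment, which is the ChIP signal of the best peak over its local background, was 3.17 and 3.38 in members and 5.71 and 5.82 over all regions. The rank value ranged from 1.02 to 13.2 with a median of 2.20, and only 137 members (7.88%) had a rank value of 5 or more, compared with 76.3% of the 32407 regions with a peak in all 4 MDA-MB-231 control lists. The regions were also short, with a median width of 1227 bp against 1702 bp over all regions, and the untreated peaks covered a median of 569 and 713 bp of a member. These values describe the lists that chose the members, and no test was applied to them.

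**Figure D2:**
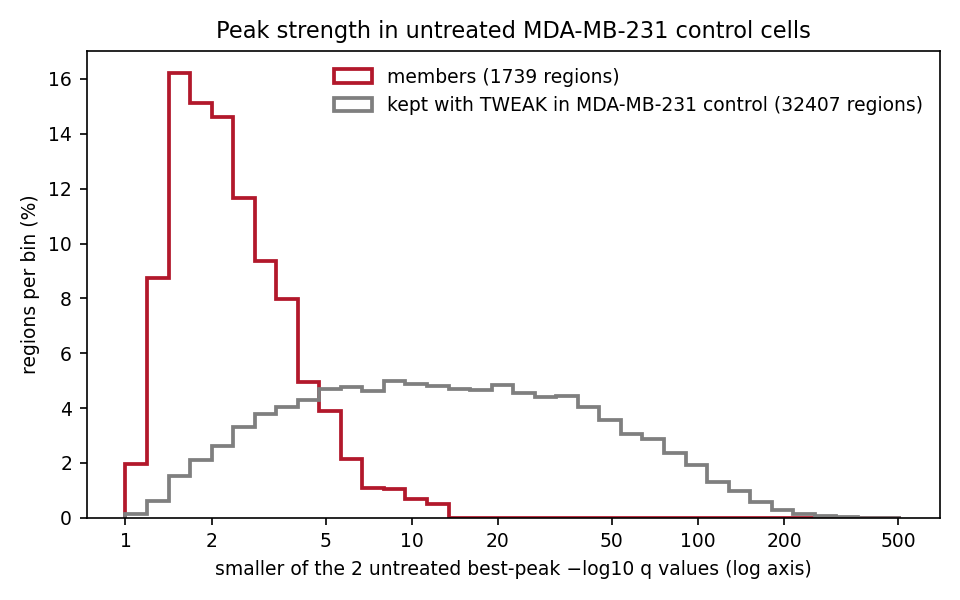
Distribution of peak strength in untreated MDA-MB-231 control cells. The x axis (log scale) is the smaller of the 2 untreated −log10 q-values of a region and the y axis is the percent of regions per bin, for the 1739 members and the 32407 regions kept with TWEAK; members peak near the calling threshold and end at 13.2.

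The calling threshold passes through this group of regions. The smallest −log10 q in the 16 lists was 1.00 to 1.02. Just inside the rule, the last 5 members had rank values from 1.02 to 1.06 and lay nearest to CEMIP2, CDYL, PCDH7, LRRC4C and NPEPPS. Just outside it, 1515 regions had a peak in both untreated lists and 1 TWEAK list. The one whose TWEAK peak was weakest lay near PDE8A (chr15:85019607-85020774), with −log10 q of 3.88 and 4.11 in untreated cells, no peak in TWEAK replicate 1 and 1.01 in TWEAK replicate 2. A second, near NRP1, had 4.47 and 4.05 untreated and 1.02 in TWEAK replicate 1. Both were stronger in untreated cells than the median member and were kept out by 1 TWEAK peak close to the threshold. With peaks required to have −log10 q of at least 2, there were 1487 such regions, which included 860 of the 1739. With peaks required to cover 50% of a region there were 2331, which included 508. Without untreated replicate 1 of MDA-MB-231 control cells, a peak in the other untreated list was enough, and the rule so changed gave 3568 regions.

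The strongest member lay in the SSUH2 gene (chr3:8657653-8660188), with a fold enrichment of 6.21 and 7.89 in untreated MDA-MB-231 control cells. Where Fn14 had been disrupted in MDA-MB-231, it was 4.16 and 4.65 untreated and 4.23 and 3.83 with TWEAK. The Hs578T control values were 10.2 and 8.45 untreated and 3.04 and 3.58 with TWEAK. A peak remained called there in both Hs578T TWEAK lists, which is why the rule counted the region as lost in MDA-MB-231 alone, but its enrichment was far lower in both than in either untreated list. In Hs578T Fn14 KO cells it was 10.5 and 10.7 untreated and 10.9 and 10.3 with TWEAK, with overlapping groups.

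The second-ranked member lay between genes, 175 kb from GLI2 (chr2:120558773-120560559), which encodes a transcription factor of the Hedgehog pathway. Its fold enrichment in untreated MDA-MB-231 control cells was 7.22 and 7.29. The Hs578T control values were 11.8 and 7.88 untreated, no peak was called in TWEAK replicate 1, and TWEAK replicate 2 had 2.93. A region with 1 remaining TWEAK peak in Hs578T stays a member, and this one kept 1 by a −log10 q of 1.69. In Hs578T Fn14 KO cells the values were 7.71 and 6.26 untreated and 6.94 and 6.17 with TWEAK. The MDA-MB-231 Fn14 KO values were 4.66 and 5.03 untreated and 5.77 and 4.02 with TWEAK, so that the groups overlapped in the KO cells of both lines.

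A similar picture was seen near BMP4, a secreted ligand of bone morphogenetic protein receptors (chr14:53998347-54000717, 39.6 kb from the gene). The fold enrichment in untreated MDA-MB-231 control cells was 5.06 and 5.60. In Hs578T control cells it was 10.5 and 6.86 untreated and 3.02 and 2.91 with TWEAK, and in Hs578T Fn14 KO cells it was 8.38 and 7.64 untreated and 7.93 and 7.41 with TWEAK. The treatments did not overlap in the control cells of Hs578T and did overlap in its KO cells.

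Near TP63, which encodes a basal epithelial transcription factor (chr3:189530266-189532005, 99.4 kb from the gene), Hs578T control cells had 5.63 and 6.04 untreated and 3.67 and 3.51 with TWEAK. Hs578T Fn14 KO cells had 5.39 and 5.76 untreated and 5.95 and 5.43 with TWEAK at the same place. In the KO cells of MDA-MB-231 it had 4.01 and 3.76 untreated, no peak in TWEAK replicate 1 and 3.23 in TWEAK replicate 2, so that the treatments did not overlap there. In an intron of CASZ1, a zinc finger transcription factor gene (chr1:10685044-10687771), Hs578T control cells had 9.76 and 8.78 untreated and 3.72 and 4.79 with TWEAK. Among members with a peak in all 8 Hs578T lists, the 5 top-ranked had SSUH2, TP63, BMP4, DPYSL2 and VRK1 as nearest genes. VRK1 encodes a nuclear kinase and lay 351 kb from its region. The remaining top-ranked members lay near DOCK5, a guanine nucleotide exchange factor for Rac, CTNNA1, the adherens junction protein alpha-catenin, IFT122, an intraflagellar transport protein, and SCARA5, a ferritin receptor. Others had as nearest gene POLRMT, the mitochondrial RNA polymerase, XKR3, and ACVR2A, an activin receptor gene that lay 1079 kb away. The nearest gene names a region here and below, at whatever distance, and was not shown to be its target.

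Across the 15 top-ranked members, both Hs578T control TWEAK lists lay below both untreated lists in 14 when a missing peak is counted as 0, and the region near SLC2A9, a urate transporter gene, had no peak in any Hs578T control list. The same separation held in 22.8% of all consensus regions. In Hs578T Fn14 KO cells it held for 3 of the 15, against 12.0% of all regions, and in MDA-MB-231 Fn14 KO cells for 3 of the 15, near TP63, IFT122 and POLRMT, against 14.0%. Only 2 of the 15 still met the rule when a peak had to cover 50% of a region, and 9 did with lists trimmed to equal length. Without Hs578T control TWEAK replicate 2, 10 did. There the other TWEAK list alone could keep a region from counting as lost in Hs578T. Over all 1739 members the counts were 634 (36.5%) in Hs578T control cells, 222 (12.8%) in Hs578T Fn14 KO and 200 (11.5%) in the KO cells of MDA-MB-231. The top-ranked members were chosen on MDA-MB-231 lists alone, apart from the exclusion of regions whose Hs578T peaks were lost altogether, which can remove regions of this kind.

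**Figure D3:**
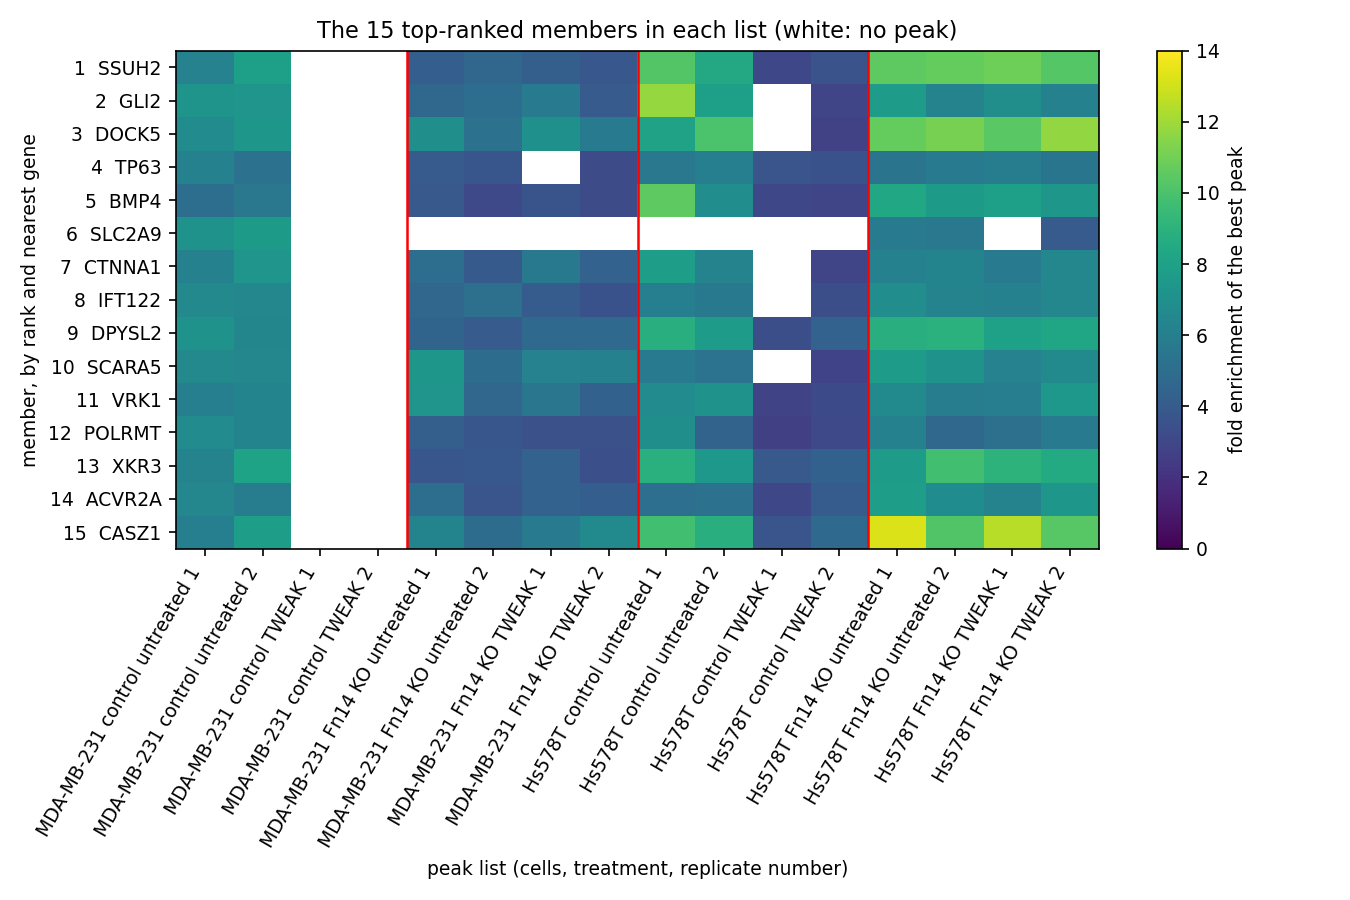
Fold enrichment of the best peak (colour) of the 15 top-ranked members (rows, by rank and nearest gene) in each list (columns), with white where no peak was called. In Hs578T control cells both TWEAK tiles are darker than both untreated tiles, or blank, in 14 of 15 rows, and the blank pair of columns in MDA-MB-231 control cells follows from the selection.

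The members were then compared between treatments in Hs578T by level and not by presence. This comparison was chosen after the data were seen. It also uses Hs578T control lists that the rule had used to leave out regions lost there. Such regions have no TWEAK peak there and could not be among regions with a peak in all 8 Hs578T lists. In the 438 members with a peak in all 8 Hs578T lists, the geometric mean fold enrichment in control cells was 4.62 and 4.48 untreated and 3.33 and 3.55 with TWEAK. Over all 32766 consensus regions with a peak in those lists, it was 7.37 and 7.07 untreated and 7.27 and 7.65 with TWEAK. Members were thus lower in both TWEAK lists than in both untreated lists, while the overall level did not follow. Relative to all regions, the difference with TWEAK was −0.45 on the log2 scale (exact permutation test, two-sided, p = 0.333, the smallest the 4 lists allow, adjusted over 7 tests p = 0.778). Of the 438 members, 398 (90.9%) had a lower mean log2 enrichment with TWEAK, against 44.8% of all 32766 regions. In 303 members (69.2%) both TWEAK lists lay below both untreated lists, against 25.5% of all regions.

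The same 438 members gave no such difference in Hs578T Fn14 KO cells. Their geometric mean fold enrichment was 4.95 and 4.71 untreated and 4.81 and 4.74 with TWEAK, and the groups overlapped. The difference relative to all regions was −0.00599 (exact permutation test, two-sided, p = 1), and its sign turned, to at most 0.00971, without untreated replicate 1 or without TWEAK replicate 2. Both TWEAK lists lay below both untreated lists in 17.6% of these members and in 14.8% of all regions. The TWEAK effect in control cells minus that in Fn14 KO cells was −0.44 on the log2 scale, which did not pass the test (exact permutation test, two-sided, 36 arrangements, p = 0.222, adjusted p = 0.778). It lay between −0.46 and −0.37 when each list was left out in turn. All regions had a higher enrichment than the members, and whether weaker peaks in general follow the same course was not tested.

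**Figure D4:**
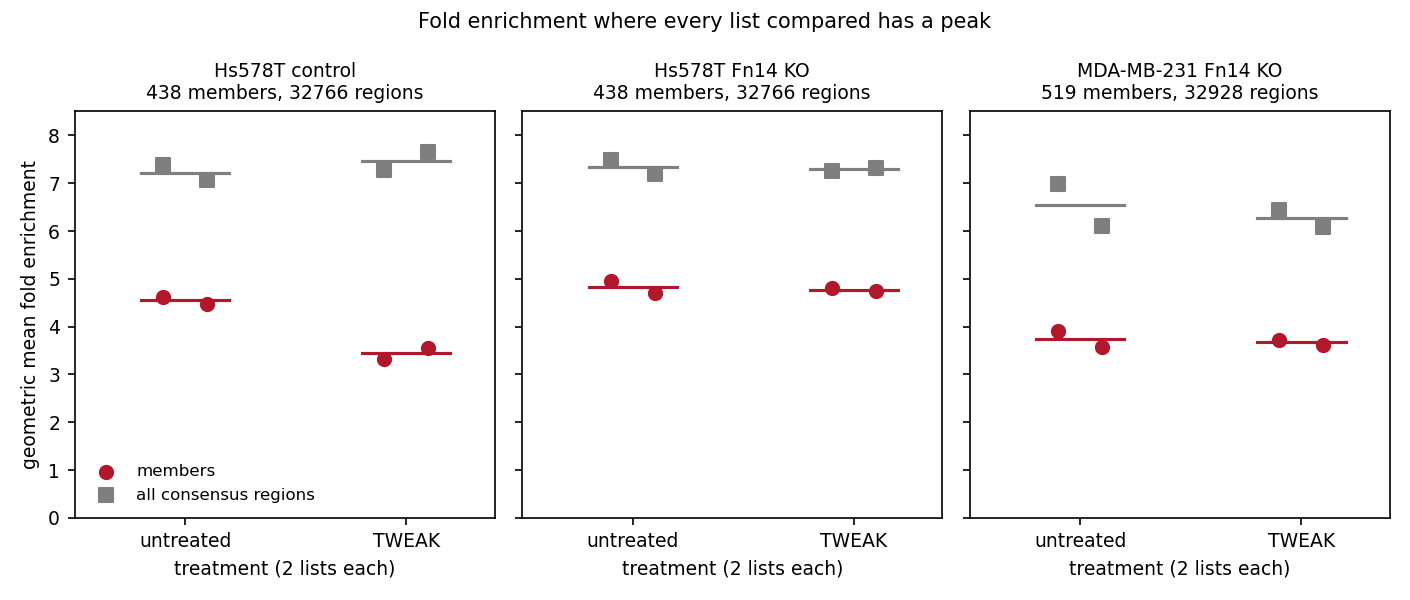
Geometric mean fold enrichment (y axis) of members and of all consensus regions in each list, untreated and with TWEAK, where every list compared has a peak. Points are single lists and lines the mean of 2 lists; members lie at 4.62 and 4.48 untreated and 3.33 and 3.55 with TWEAK in Hs578T control cells and overlap between treatments in the Fn14 KO cells of both lines.

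Presence of a peak was also lower with TWEAK in Hs578T control cells, where the rule had removed the regions lost altogether, and no test was applied to it. A peak was present in 67.2% and 59.5% of members in the untreated lists and in 35.4% and 51.1% in the TWEAK lists, while the share over all regions was 79.6% and 76.8% untreated and 74.9% and 78.9% with TWEAK. More untreated than TWEAK lists had a peak in 761 members (43.8%) and fewer in 56 (3.22%), compared with 14.5% and 11.5% of all regions. Specifically, 405 members had both untreated peaks and 1 TWEAK peak, 356 had 1 untreated peak and no TWEAK peak, 474 had all 4 peaks and 378 had none. A loss in MDA-MB-231 only is thus a statement about calls: these 761 members also had fewer peaks with TWEAK in Hs578T control cells, and a difference between the lines was not tested.

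The rule did not use the Fn14 KO lists of MDA-MB-231. There, members had a peak in 72.3% and 43.8% of cases untreated and in 52.2% and 47.4% with TWEAK. The untreated mean was 58.1% ± 20.2 (SD, n = 2 lists) and the TWEAK mean 49.8% ± 3.37 (SD, n = 2 lists). The untreated pair was itself the widest apart, and both TWEAK values fell between its replicates. The difference of −8.28 percentage points did not exceed that spread (exact permutation test, two-sided, p = 1, smallest possible p = 0.333), and without untreated replicate 1 it was 6.0 points. That replicate had 46295 peaks and the other 39544, and the part of list length in the difference was not tested. Over the Fn14 KO cells of both lines, the difference was −3.72 points (exact permutation test within lines, two-sided, p = 1, smallest possible p = 0.0556), and 3.42 without the same replicate.

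In the same cells, level was compared in the 519 members with a peak in each of the 4 lists. The geometric mean fold enrichment was 3.90 and 3.57 untreated and 3.72 and 3.62 with TWEAK, so that both TWEAK values lay between the untreated ones. Relative to the 32928 regions with a peak in all 4 lists, the difference was 0.04 on the log2 scale (exact permutation test, two-sided, p = 0.667), and −0.000487 when a peak had to cover 50% of a region. Both TWEAK lists lay below both untreated lists in 18.1% of these members, against 19.5% of all such regions.

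By the all-or-none definition, 69 members (3.97%) were also lost in MDA-MB-231 Fn14 KO cells and 14 (0.805%) were gained, with a peak in both TWEAK lists and neither untreated list, against 1.35% and 0.321% of all regions. In Hs578T Fn14 KO cells 24 members (1.38%) were lost and 23 (1.32%) gained, against 0.829% and 1.05% of all regions. In Hs578T Fn14 KO cells the gained share was close to the background. The lost share there and both shares in MDA-MB-231 Fn14 KO cells were above the background, and no difference from it was tested in either line. Of the Fn14 KO lists of MDA-MB-231, all 4 had a peak in 519 members (29.8%) and none had one in 358 (20.6%), against 59.6% and 18.3% of all regions. The strongest of the latter lay near SLC2A9 and MSX1, a homeobox gene, and in introns of FAAH, which encodes fatty acid amide hydrolase, and KLF13, a Krüppel-like factor, and at the start site of ZNF197.

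The region near ZNF197, a zinc finger gene (chr3:44584471-44585855), was absent from one set of KO lists and present in the other. It had a fold enrichment of 4.55 and 4.32 in untreated MDA-MB-231 control cells and no peak in any of the 4 KO lists. All 8 Hs578T lists had a peak, from 3.50 to 7.48. In contrast, the region 20.6 kb from MSX1 (chr4:4837757-4839077) had 5.73 and 4.43 in untreated MDA-MB-231 control cells and no peak in any of the other 14 lists. There were 94 members (5.41%) with a peak in those 2 untreated lists alone. Any region with that pattern meets the rule, so no other region can have it. Of all regions, 6.94% had a peak in exactly 2 lists, whichever these were, which is a wider pattern. A peak in all 14 lists other than the TWEAK lists that defined the loss was found in 237 members (13.6%), against 52.5% of all regions.

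By the rule, a loss in Hs578T could be called only where both untreated Hs578T control lists had a peak, and 879 members had both. In the remaining members such a loss could not have been called, whatever the TWEAK lists held. Among those, 208 members (12.0%) had no peak in any Hs578T list, against 3.34% of all regions. The strongest were in an intron of STK32B, a kinase gene, near MSX1, near VWC2, which encodes a secreted BMP antagonist, in MYT1, a zinc finger gene, and 2.13 kb from ARSA, the lysosomal arylsulfatase A gene. The STK32B region (chr4:5369888-5372137) had 4.70 and 4.49 in untreated MDA-MB-231 control cells. In MDA-MB-231 Fn14 KO cells it had 4.05 and 3.58 untreated and 4.26 and 3.01 with TWEAK, which overlapped.

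Stronger members were found in more of the other lists. The 435 members of lowest rank, up to 1.65, had a peak in 54.9% and 45.1% of cases in untreated and in 27.6% and 35.6% in TWEAK-treated Hs578T control lists. The 435 of highest rank, from 3.21, had one in 81.8% and 75.4% untreated and in 46.4% and 67.8% with TWEAK. The means of 2 lists in Hs578T Fn14 KO cells were 56.7% and 58.0% at low rank and 83.7% and 84.8% at high rank. The lower share with TWEAK in control cells was thus seen at the weak and at the strong end of the members, and the Hs578T KO lists stayed level at both ends. For the KO cells of MDA-MB-231 the means were 43.9% untreated and 35.9% with TWEAK at low rank, and 77.4% and 72.6% at high rank.

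Members were compared with the 742 regions lost in control cells of both lines in lists that chose neither. In the 4 MDA-MB-231 Fn14 KO lists, the latter had a peak in 77.2%, 47.2%, 58.0% and 51.5% of cases, which was higher than the members in each list. The members were lower by a mean of −4.55 percentage points (exact sign-flip permutation test over 4 lists, two-sided, p = 0.125, the smallest possible, adjusted p = 0.778). Without Hs578T control untreated replicate 2 the difference was 2.12 points. Strength differed between the sets, with a median rank value of 2.51 in the shared losses, and its part in the difference was not tested.

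Most members lay away from start sites. Protein-coding transcripts started within 2 kb of 185 members (10.6%, 95% Clopper-Pearson interval 9.23 to 12.2), against 25.1% of all consensus regions and 35.9% of the regions kept in MDA-MB-231 control cells. A further 774 (44.5%) lay in a gene and 780 (44.9%) between genes. The median distance to a start was 27.4 kb, against 18.4 kb over all regions. Regions lost in both lines were alike, with 9.97% near a start. Another region lost in MDA-MB-231 control cells lay within 50 kb of 21.1% of members and a gained region within 50 kb of 11.9%, against 15.6% and 16.7% of all regions. By chromosome, from 1 to 22 and X, members were 2.65% to 4.31% of the consensus regions.

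Of the members at start sites, the top-ranked 10 were at ARHGEF1, FAM166C, ID2, WFS1, ATP8A1, IFT122, PXMP4, VWDE, RAB37 and LITAF, where the start is that of any annotated protein-coding transcript. The region at ARHGEF1 (chr19:41886213-41889308), a guanine nucleotide exchange factor gene, had a fold enrichment of 5.76 and 6.0 in untreated MDA-MB-231 control cells. Hs578T control cells had 6.20 and 6.92 there untreated and 3.28 and 3.53 with TWEAK, and Hs578T Fn14 KO cells 5.72 and 5.45 untreated and 4.74 and 5.86 with TWEAK. The treatments were apart in the control cells and overlapped in the KO cells.

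ID2 encodes a helix-loop-helix inhibitor that is a classic BMP target. Its region (chr2:8677519-8681743) had 4.88 and 4.75 in untreated MDA-MB-231 control cells. Hs578T control cells had 4.47 and 5.21 untreated and 3.84 and 2.82 with TWEAK, and Hs578T Fn14 KO cells had 6.05 and 5.70 untreated and 6.39 and 5.99 with TWEAK. At WFS1, which encodes an endoplasmic reticulum membrane protein, Hs578T control cells had 7.02 and 4.99 untreated, no peak in TWEAK replicate 1 and 3.53 in TWEAK replicate 2. Among these 10 regions, both TWEAK lists lay below both untreated lists in 8 in Hs578T control cells, and in 1 in the Fn14 KO cells of each line. Over all consensus regions, with a missing peak counted as 0, the share was 22.8% in Hs578T control cells. It was 12.0% in Hs578T Fn14 KO cells and 14.0% in MDA-MB-231 Fn14 KO cells.

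Members were scattered over many genes. They had 1444 nearest protein-coding genes, of which 1215 had 1 member, 183 had 2 and 46 had 3 or more. The largest number, 5, lay nearest to EFNA5, which encodes the guidance ligand ephrin-A5, between 109 and 1290 kb from its start and among 40 consensus regions nearest to that gene. Among the intronic ones, the stronger region (chr5:107513051-107515245) had −log10 q of 4.37 and 9.94 in untreated MDA-MB-231 control cells. The Hs578T control values were 9.61 and 7.90 untreated, absent in TWEAK replicate 1 and 2.31 in TWEAK replicate 2, and in Hs578T Fn14 KO cells it ranged from 10.1 to 14.8 over the 4 lists.

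A further 8 genes had 4 members each, among them DOCK4, a Rac exchange factor, GLI2, HAS2, a hyaluronan synthase, ADGRF1, an adhesion G protein-coupled receptor, SNX5, a sorting nexin, AGAP1, a GTPase-activating protein for Arf, and SHLD1, a shieldin subunit. The 4 members nearest to GLI2 had a peak in a mean of 4 regions in untreated and 3 in TWEAK-treated Hs578T control cells. For AGAP1 the means were 4 and 2 and for DOCK4 3.5 and 2. They were 3 and 1.5 for SNX5, 1.5 and 1 for SHLD1 and 1 and 0.5 for HAS2. For ADGRF1 the mean was 2 with either treatment. Only 6 of the 18 consensus regions nearest to GLI2 were kept in MDA-MB-231 control cells and none was gained, while 22 of 37 nearest to HAS2 were kept and 2 gained.

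Gene lists were compared with all genes by counts. All 1739 members were 3.15% of the 55219 consensus regions. The mesenchymal and basal identity list had the highest share, with 14 members among 193 regions (7.25%), near TP63, CDH2 (N-cadherin), FN1 (fibronectin), TNC (tenascin C), TWIST1, ZEB2, SNAI2 and TCF4. The member in FN1 (chr2:215430645-215432133) had −log10 q of 2.20 and 2.33 in untreated MDA-MB-231 control cells and no peak in any of the 14 other lists, as did the TNC region with 2.19 and 2.78. The median rank value of the 14 was 1.97, below the 2.20 of all members. In the same list 20 of the 193 regions were gained, against 3079 of all 55219 consensus regions, so that the list's loci held regions of both kinds.

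TGF-beta, BMP and SMAD signalling had 12 members among 256 regions (4.69%). Ligand regions lay near BMP4 and BMP6, the receptor TGFBR2 and the transducers SMAD3 and SMAD6 (an inhibitor) had a member, and so did the latent TGF-beta binding proteins LTBP1 and LTBP2 and the target ID2. The LTBP1 region (chr2:33303980-33305713) had −log10 q of 5.12 and 6.08 in untreated MDA-MB-231 control cells, 5.59 and 8.13 in untreated Hs578T control cells and, with TWEAK, no peak and 2.18. In Hs578T Fn14 KO cells it ranged from 12.8 to 16.2 over the 4 lists. Guidance genes (semaphorins, plexins, ephrins) had 14 members among 328 regions (4.27%), near SLIT2, EFNA5, PLXND1, NRP1, PLXNA2, ROBO1, EFNB2 and EPHA4. Regulators of small GTPases and the cytoskeleton had 17 among 447 (3.80%), led by DOCK5, DOCK4 and TIAM1.

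Hippo, YAP and TEAD genes had 9 members among 190 regions (4.74%), near the kinases STK4, STK3 and LATS2, the cadherin FAT1 and the cofactors WWTR1 and VGLL3 among others. The FAT1 region (chr4:186602739-186607087) had −log10 q of 16.4 and 16.5 in untreated Hs578T control cells and 1.69 and 2.67 with TWEAK. WNT signalling had 7 among 184 (3.80%) and receptor tyrosine kinases and their ligands 9 among 279 (3.23%). Sterol and fatty acid synthesis had 5 among 118 (4.24%). Epithelial and luminal identity had 5 among 116 (4.31%), with GATA3 and ESR1 as nearest genes. The top-ranked GATA3 member lay 468 kb from that gene. AP-1 and small MAF factors had 4 among 103 (3.88%), near MAF, BATF3 and FOSL2.

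The NF-kB list had the lowest share, with 1 member among 149 regions (0.671%), 31.8 kb from IL1B, which encodes interleukin 1 beta. Of the same 149 regions, 27 were gained in MDA-MB-231 control cells, against 3079 of all 55219 consensus regions. Interferon and STAT genes had 1 member, near HLA-C, among 105 regions (0.952%). ERK feedback and ETS factors had 6 among 327 (1.83%), near SPRY2, DUSP4, DUSP6, PHLDA1 and ETS2. Nuclear receptors and glucocorticoid targets had 6 among 277 (2.17%), cell cycle and MYC genes 4 among 157 (2.55%), and integrins, collagens and matrix 8 among 297 (2.69%). No set test was applied to any list.

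The central 300 bp of every region was searched on both strands for 18 motifs, and each share below is that of members followed by that of all consensus regions. RUNX letters (TGTGGTT), seen in the GLI2 and TP63 windows above, were held by 12.8% of members (95% Clopper-Pearson interval 11.2 to 14.4) and by 8.24% of all regions. They were in 7.60% of the 3079 regions with the reverse pattern, called here gained regions, and in 17.0% of those lost in both lines. Away from start sites the shares were 13.6% of members and 9.70% of all regions. RUNX factors bind DNA together with core binding factor beta and have roles in the mammary epithelium.

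NF-kB letters (GGNNTTNCC) were found in 13.4% of members (11.8 to 15.1), against 16.6% of all regions and 32.2% of gained regions. AP-1 letters (TGANTCA) were in 30.0% of members and 26.1% of all regions, but away from start sites the shares were 31.5% and 31.7%. Likewise SP or KLF letters (GGGCGG), common at start sites, were in 10.3% and 17.0%, and in 7.34% and 7.63% away from start sites. For both, the difference was thus smaller once start sites were left out.

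GATA letters (AGATAA) were less frequent in members, with 13.7% against 15.6%, and 14.6% against 17.9% away from start sites. NFI letters (TTGGCA, a partial site) were in 18.3% against 15.7%, but away from start sites in 19.1% (17.2 to 21.2) against 17.3%. TEAD letters (GGAATG) were in 21.7% against 19.2%, and away from start sites in 22.3% (20.2 to 24.4) against 21.0%. The glucocorticoid receptor letters (AGAACA, a partial site) were in 21.8% against 19.2%, and away from start sites the interval was 20.9 to 25.1 against 21.5%. Away from start sites, the members' intervals for these 3 motifs thus held the share of all regions. So did that for the E-box that ZEB and SNAI factors bind (CAGGTG, 21.2% against 19.9%). Over all members, the intervals for ETS (GGAAGT, 20.2% against 21.0%), C/EBP (TTGCNNAA, 15.1% against 14.2%) and FOX (TGTTTAC, 6.50% against 5.73%) held the share of all regions.

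The same was true of the small MAF letters (TGCTGAC, 5.41% against 4.79%), which can overlap AP-1 letters. The intervals also held the overall share for the E-box of the MYC type (CACGTG, 3.74% against 4.09%), POU (ATGCAAAT, 2.19% against 1.83%) and STAT (TTCCNGGAA, 1.38% against 1.14%). CREB (TGACGTCA, 0.230% against 0.445%) and SMAD letters (GTCTAGAC, 0.0575% against 0.154%) were rare in any set. These shares describe the reference sequence, the intervals cover these regions only, and no match says that a factor was bound.

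**Figure D5:**
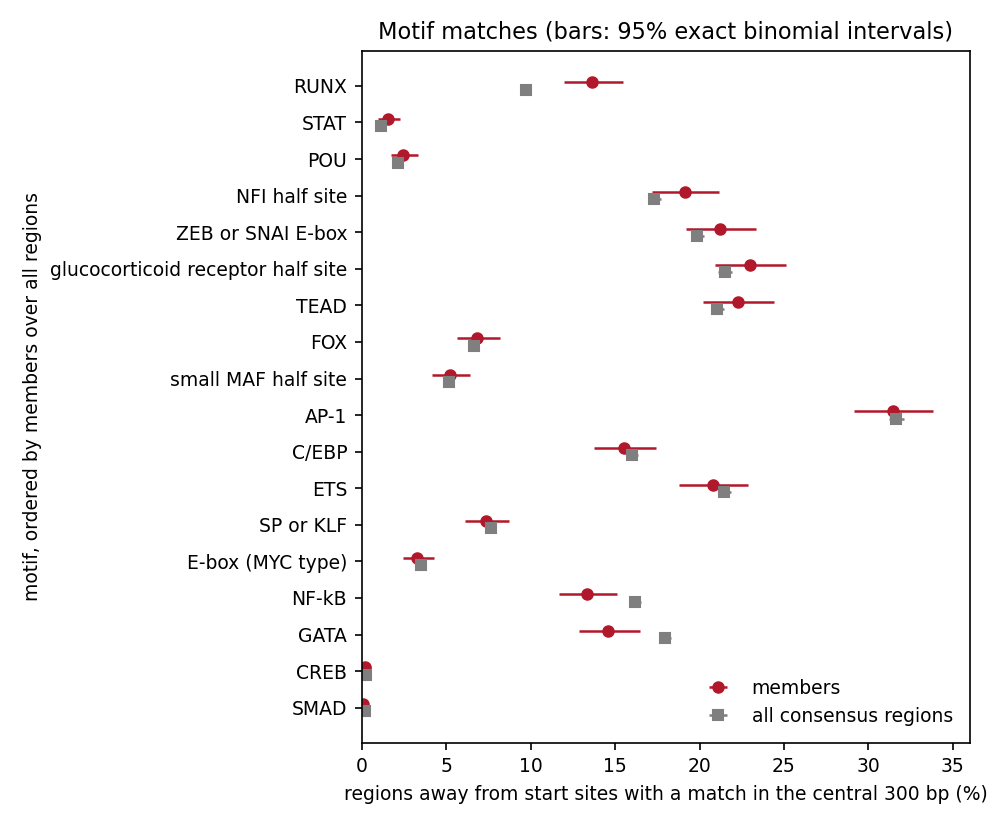
Share of regions more than 2 kb from a start site whose central 300 bp holds each of the 18 motifs (x axis, percent), for members and all consensus regions, with bars for 95% Clopper-Pearson intervals over regions. Motifs are ordered by the ratio of members to all regions, with RUNX at the top (13.6% against 9.70%) and NF-kB (13.3% against 16.2%) and GATA (14.6% against 17.9%) near the bottom.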

How the data were processed

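H3K27ac ChIP-seq had been performed in the 16 samples, and 1 peak list per sample was used. Per the study's methods, the authors used Trimmomatic for trimming, Bowtie2 for alignment (hg38) and MACS2 with input as background, and took out blacklisted regions. Tool versions are not given in the sources used here, and broad calling was inferred from the columns. The deposited score is 10 times the −log10 q-value without decimals, and the score itself was not used. The deposited ratio is the fold enrichment of a peak over local background. Of the deposited −log10 p- and q-values, the q-values were used to rank and filter peaks. Peak lists hold no reads, so the depth is unknown and intervals cover regions only.

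Peaks were merged and scored as described above in Python 3.11.15 (numpy 2.4.6, pandas 2.3.3, pysam 0.24.0, scipy 1.17.1), and the best peak of a region gave its value in a list. All 705670 peaks lay within hg38. The 39544 to 47197 peaks per list covered 64.2 to 88.9 Mb. Genes were protein-coding genes of GENCODE 44, and 10 members lay on contigs other than the main chromosomes. Values per list were compared by exact permutation tests, two-sided, at a threshold of 0.05, with Benjamini-Hochberg adjustment over 7 tests. DiffBind, which needs reads, was not run. The rule and the tests were checked on simulated lists. Members, gene lists and motifs were chosen with earlier results of these data known. Named regions were the 15 top-ranked members, the 10 genes nearest to most members, the 10 top-ranked at start sites, up to 4 per gene list, 5 each with a peak in all or no Hs578T or MDA-MB-231 Fn14 KO list, and 5 on each side of the rule. Further genes of a list were named to complete it. The sequence of 1 window and the values of 1 of the genes with most members are not reported here. Alternatives were a stricter threshold, 50% coverage, equal list lengths, merging within 500 bp and leaving out each list.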

Additional observations from a re-analysis of the deposited data

How the results depend on the processing

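With 2 lists per group, no test within a line could reach 0.05, so that no p-value says anything of stability. The number of members ranged from 1423 to 3568 when each list was left out, the highest without MDA-MB-231 control untreated replicate 1. Where the rule uses the list left out, the other list of its group decides alone, so that the rule itself changes. With peaks of −log10 q of 2 or more, peaks covering 50% of the region, and lists trimmed to the shortest, 860, 508 and 995 of the 1739 regions still met the rule. Of the 15 top-ranked, 12, 2 and 9 did, and 10 without Hs578T control TWEAK replicate 2. The sets chosen anew under these 3 settings, of 1487, 2331 and 1781 regions, had a median untreated fold enrichment of 3.62, 4.35 and 3.51, against 3.29 as reported, and 3.10 to 3.36 with lists left out. The share near a start was 17.0% with 50% coverage, 8.68% within 1 kb, and 10.3% to 12.4% with lists left out. The AP-1 share was 26.2% with 50% coverage and 57.6% over whole regions. The share within 1 kb cannot exceed that within 2 kb of the same members. For the 57.6% a longer sequence was searched. The cause of the other shifts was not tested.

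The difference in occupancy with TWEAK ranged from −22.6 to 6.0 points in MDA-MB-231 Fn14 KO cells and from −10.9 to 3.42 points over the KO cells of both lines when lists were left out, and changed sign in each only without MDA-MB-231 Fn14 KO untreated replicate 1. The enrichment difference in MDA-MB-231 Fn14 KO cells was −0.000487 with 50% coverage. Members minus shared losses ranged from −10.6 to 2.12 points, positive without Hs578T control untreated replicate 2. The difference in Hs578T Fn14 KO cells ranged from −0.0216 to 0.00971, with the sign turned without untreated replicate 1 (0.00078) or TWEAK replicate 2. In Hs578T control cells the added comparison stayed negative under all 21 alternatives, from −0.455 to −0.373 with lists left out and −0.452 to −0.402 otherwise.

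The labels give the lists a replicate number and do not say whether same-numbered lists share a day or batch. Replicate deviations of the treatments correlated at 0.0914 and 0.0433 in MDA-MB-231 control and Fn14 KO cells. In Hs578T control and Fn14 KO cells they correlated at −0.0106 and 0.251. These values cannot decide whether the lists were paired. With the replicate block, in which labels were exchanged only between same-numbered lists, the differences were unchanged by construction (−8.28, −3.72 and 0.0364) with exact permutation p = 1, 1 and 0.5, and no call changed.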
